A study of Mus musculus with 6 samples.

Results

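The synaptonemal complex is the protein ladder that joins homologous chromosomes in meiotic prophase, and 9 of its components and axis partners were listed by function: Six6os1, Sycp1, Sycp2, Sycp3, Syce1, Syce2, Tex12, Hormad1 and Hormad2. A member was measured where a probe set of the array carried its gene symbol or an older name as the only symbol. This held for 6 of the 9, with 53 probe sets in all, out of 15792 genes and 188590 probe sets in the table. Sycp2, Syce1 and Hormad2 were not analysed here. Six6os1, now 4930447C04Rik in RefSeq, was selected on its measured KO minus WT values, in which 1 probe set stood apart from the others, so its values are given as a description with no test. The other measured members (Sycp1, Sycp3, Syce2, Tex12 and Hormad1, called partners here) were chosen for their function.

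Total RNA of testes was hybridised to 6 Affymetrix exon arrays, 3 from mice of genotype WT and 3 from mice of genotype Ttll5/Stamp KO. Both groups shared a mixed background of the strains 129/SvEv, C57BL/6 and FVB/N, and the animals were littermates matched for age, with no age given. Ttll5, also named STAMP, encodes a tubulin tyrosine ligase-like enzyme that modifies tubulin. The labels call the arrays biological replicates without tying an array to an animal, so the p-values reflect only how far these 6 samples spread, which may be technical. The study, by its title, concerns malformed sperm and infertility after loss of the gene. The labels give no promoter, clone or pool for the KO, and a whole testis holds every germ cell stage and the somatic cells at once.

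In the ladder, SYCP3 and SYCP2 build the lateral elements along each chromosome axis, SYCP1 spans the gap as the transverse filament, and SYCE1, SYCE2, TEX12 and SIX6OS1 form the central element where SYCP1 heads meet. HORMAD1 and HORMAD2 coat the axes before synapsis and are largely removed from synapsed stretches. These genes are expressed in spermatocytes, and mice that lack SYCP1, SYCE2, TEX12 or SIX6OS1 are known to arrest in meiosis.

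The 6 measured members share letters before a start site. The choice of members did not use these letters, but the motifs were chosen after some of them had been read. The 250 bases before each start site are shown for the 5 measured members with a single or nearly single start, from RefSeq on GRCm38.p6, 5′ to 3′ on the gene's strand. The capitals mark CACGTG, which reads the same on both strands, TCGCGAGA or its reverse complement TCTCGCGA, and GGCGGGAA or its reverse complement TTCCCGCC. The Six6os1 window lies on the minus strand at chr12:72917766-72918015, that of Sycp1 on the minus strand at chr3:102936101-102936350, that of Sycp3 on the plus strand at chr10:88459337-88459586, that of Tex12 on the minus strand at chr9:50561269-50561518, and that of Hormad1 on the plus strand at chr3:95559427-95559676.
Six6os1: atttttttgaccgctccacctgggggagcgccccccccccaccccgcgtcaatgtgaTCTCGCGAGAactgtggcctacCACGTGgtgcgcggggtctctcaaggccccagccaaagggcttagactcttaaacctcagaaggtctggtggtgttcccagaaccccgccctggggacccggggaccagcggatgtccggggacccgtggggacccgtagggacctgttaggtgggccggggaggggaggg
Sycp1: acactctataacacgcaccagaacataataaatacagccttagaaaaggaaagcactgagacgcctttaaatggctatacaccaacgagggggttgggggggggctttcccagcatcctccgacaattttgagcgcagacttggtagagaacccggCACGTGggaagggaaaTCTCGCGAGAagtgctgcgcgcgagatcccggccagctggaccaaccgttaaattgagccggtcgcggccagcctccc
Sycp3: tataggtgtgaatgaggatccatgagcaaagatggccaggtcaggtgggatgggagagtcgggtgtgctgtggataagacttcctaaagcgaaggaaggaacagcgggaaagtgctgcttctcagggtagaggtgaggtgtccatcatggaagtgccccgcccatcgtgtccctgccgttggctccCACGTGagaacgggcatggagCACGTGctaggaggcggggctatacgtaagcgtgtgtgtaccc
Tex12: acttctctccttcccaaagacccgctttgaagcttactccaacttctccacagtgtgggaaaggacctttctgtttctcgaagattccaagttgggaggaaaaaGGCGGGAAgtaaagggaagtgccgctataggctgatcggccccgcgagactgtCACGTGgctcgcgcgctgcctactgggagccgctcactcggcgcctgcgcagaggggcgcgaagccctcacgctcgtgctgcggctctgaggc
Hormad1: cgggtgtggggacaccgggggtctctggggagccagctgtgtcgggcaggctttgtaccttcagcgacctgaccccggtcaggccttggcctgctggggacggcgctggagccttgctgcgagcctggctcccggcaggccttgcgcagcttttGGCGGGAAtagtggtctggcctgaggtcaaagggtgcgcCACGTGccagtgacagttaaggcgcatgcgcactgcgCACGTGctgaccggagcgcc

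All 6 measured members held CACGTG before a start site, as did 6.86% of 27025 genes with such a window. Counted by window, it was in 7 of the 8 windows of measured members and in 7 of the 11 of all members. Of 32851 windows of all genes, 6.02% held it. Hormad1 has start sites at nearly the same place, so its windows overlap and count the same CACGTG places again. The windows of measured members held 11 to 24 CG pairs, where the median window held 6, and among all windows with 11 to 24 the share with CACGTG was 9.42%. For Syce2 this was the second of its start sites on chromosome 8, with the hexamer 88 bases before it, and the window of its first start site held none of the motifs. The windows of Sycp2, Syce1 and Hormad2 held none of the 3 motifs. Sycp3 and Hormad1 held CACGTG at 2 places. Six6os1 and Sycp1 shared the longer TCTCGCGAGA, in which TCGCGAGA and its reverse complement overlap. The longer run was in 0.39% of all windows and TCGCGAGA in 0.858%, or 2.07% of those with 11 to 24 CG pairs. It lay near CACGTG in both genes, before it in Six6os1 and after it in Sycp1. GGCGGGAA was found in Tex12, Hormad1 and Syce2, against 1.86% of all windows and 3.79% of those with 11 to 24 CG pairs. These motifs were chosen after some of the letters had been read, so the counts are descriptions, and a match is not shown to be a bound site.

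The labels held for the targeted gene. Ttll5 had gene values of 11.16, 11.14 and 11.16 on the WT arrays and 9.58, 9.49 and 9.53 on the KO arrays, as the mean log2 value over its probe sets. Every difference below is the KO mean less the WT mean, in log2 units. Ttll5 fell by 1.62 (SE 0.066, limma adjusted p = 4.3e-05), and all 33 of its probe sets were lower on every KO array. Over all genes, 11 of 15792 passed limma's adjusted p of 0.05, or 0.0697%, and none of the 5 partners was among them. The germ cell markers Ddx4 and Dazl and 4 measured spermatocyte markers were present, with group means of 9.76 to 12.16. Among those 4 (Piwil1, Hspa2, Ccna1 and Adam2) the median difference was -0.04, and the list mean stood at 10.64 to 10.74 on WT arrays and 10.64 to 10.66 on KO arrays. A lower value in a whole testis can reflect fewer cells of a type or less RNA per cell, which cannot be told apart here.

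A single Six6os1 probe set stood apart between the genotypes, while none of the other 16 differed by more than 0.37. Probe set 5299915 read 4.65, 4.53 and 4.23 on the WT arrays and 9.08, 8.90 and 8.66 on the KO arrays. Every KO array thus lay above every WT array, with 4.01 between the lowest KO and the highest WT value. The means were 4.47 ± 0.22 in WT and 8.88 ± 0.21 in KO (SD, n = 3 each), a difference of 4.41 or 21.2-fold. The WT values lay below the lower quartile of each of those arrays (4.59 to 4.66), so a signal above background is not shown for them and the fold has no firm size. This probe set placed Six6os1 on the list, and no test of it is given.

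**Figure D1:**
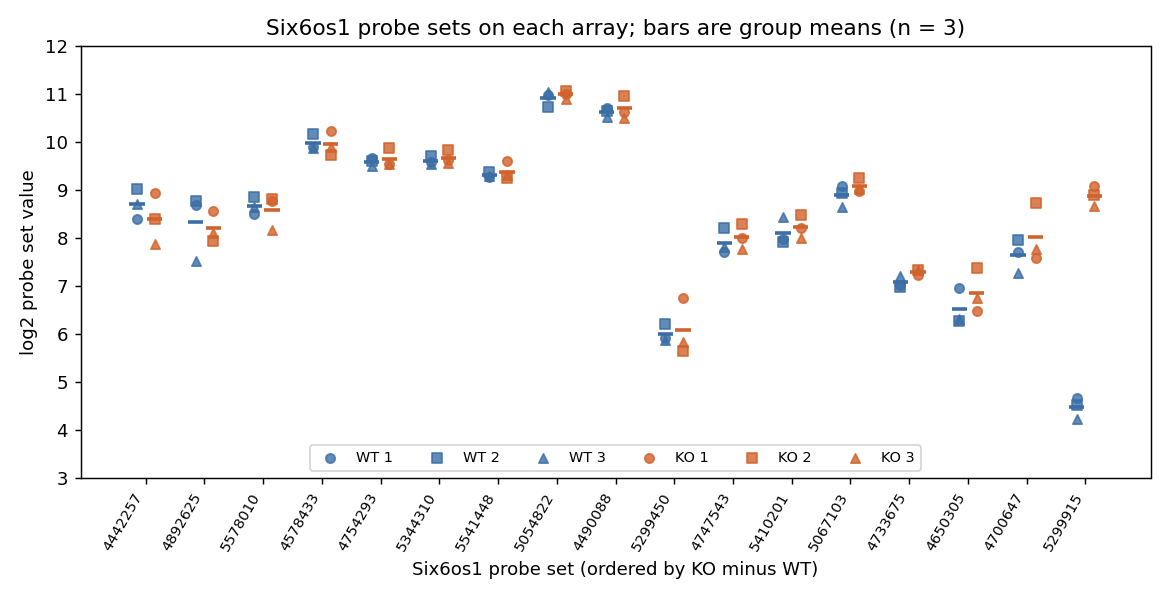
Log2 values of the 17 Six6os1 probe sets (horizontal axis, ordered by difference) on each array, with WT in blue, KO in orange and short bars for the means of 3 arrays. The groups lie together in all but the probe set at the right end, which reads 4.23 to 4.65 in WT and 8.66 to 9.08 in KO.

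The other 16 probe sets of Six6os1 differed by -0.32 to 0.37, with a median of 0.07, 12 higher and 4 lower in KO. Their mean was 8.63, 8.71 and 8.51 on the WT arrays and 8.76, 8.81 and 8.52 on the KO arrays. These groups overlapped, and the difference of that mean was 0.08. Measured against it, the leading probe set differed by 4.33 between the genotypes. Of the 16, only probe set 4733675 had non-overlapping groups, with 7.02, 6.98 and 7.22 on the WT arrays and 7.22, 7.33 and 7.32 on those of KO, a difference of 0.22, although the nearest WT and KO values round to the same number. Groups in which all KO arrays lay above all WT arrays made up 4.97% of all probe sets. The highest of the 16, probe set 4700647, differed by 0.37 with overlapping groups, and the lowest, 4442257, by -0.32. KO 2 was the array with the highest value in 10 of the 17 probe sets.

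The gene value of Six6os1, the mean over its 17 probe sets, carried the shift of the single probe set in diluted form. It was 8.39, 8.46 and 8.26 on the WT arrays and 8.77, 8.81 and 8.53 on those of KO, a difference of 0.33 with groups that did not overlap. Over all genes, 4.53% had all KO arrays above all WT arrays. The Six6os1 value includes the probe set on which the gene was chosen, so nothing is read from that. The mean of the other 16, at a difference of 0.08, shows how much of this came from the leading probe set. The order of the probe sets along the transcript was not used here, so the part of the gene it covers is not given.

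The lateral element gene Sycp3 and the transverse filament gene Sycp1 had lower values in KO, and neither passed the test. Of all 36 partner probe sets, 24 were lower in KO, against 49.9% of all probe sets. These were 23 of the 25 of Sycp1 and Sycp3 and 1 of the 11 of Syce2, Tex12 and Hormad1, a grouping made after the directions were seen. Probe sets of 1 gene read the same transcript and are not independent. Sycp3 gene values on the WT arrays were 11.11, 11.27 and 11.13, and on the KO arrays 10.95, 11.05 and 11.01. All 3 KO arrays lay below all 3 WT arrays, which also held for 6.67% of all genes. The difference was -0.16 (SE 0.076, 95% interval -0.34 to 0.01, limma adjusted p = 0.84). Among its 9 probe sets the differences ran from -0.44 (4681468, limma adjusted p = 0.89) to 0.01 (4966004), and 8 were lower in KO.

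The WT arrays of Sycp1 lay further apart than the group means. WT 1, WT 2 and WT 3 read 9.56, 9.88 and 10.15, the KO arrays read 9.45, 9.66 and 9.73, and the groups overlapped. The difference was -0.25 (SE 0.15, 95% interval -0.59 to 0.09, limma adjusted p = 0.88). WT 3 had the highest value of the 6 arrays in 14 of the 16 Sycp1 probe sets, and KO 1 had the lowest in 10. Without WT 3 the difference was -0.10, and without WT 1 it was -0.40, both not past the threshold. The lowest of its probe sets, 5091003, read 9.85, 9.83 and 9.91 on the WT arrays and 9.36, 8.86 and 9.59 on those of KO. It differed by -0.59 (limma adjusted p = 0.88), with all KO arrays below all WT arrays, as in 5.27% of all probe sets. The highest, 5574362, differed by 0.04.

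The central element partners Syce2 and Tex12, whose proteins assemble together into fibres, had group means within 0.09 of WT. Syce2 read 11.73, 11.70 and 11.56 on the WT arrays against 11.80, 11.81 and 11.63 on the KO arrays, with overlapping groups. It differed by 0.09 (SE 0.083, 95% interval -0.11 to 0.28, limma adjusted p = 0.95), with 0.03 when WT 3 was left out, 0.06 without KO 2 and 0.14 without KO 3. All 4 of its probe sets were higher in KO, from 0.05 (4399113) to 0.16 (4818475). The latter had all KO arrays above all WT arrays, as in 4.97% of all probe sets. Tex12 read 8.22, 8.20 and 7.90 on the WT arrays against 8.16, 8.31 and 7.90 on the KO arrays, and these values overlapped throughout. It differed by 0.02 (SE 0.13, 95% interval -0.28 to 0.31, limma adjusted p = 0.997), and its sign turned without WT 3 (-0.09), KO 2 (-0.08) or KO 1 (-0.0004) and with a term for WT 1, KO 2 and KO 3 (-0.0037). No label groups the arrays of that term, whose lower quartiles (4.66 to 4.67) were the highest of all arrays. The 5 probe sets of Tex12 ran from -0.13 (5600389) to 0.13 (4860831).

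The axis protein gene Hormad1 was measured by 2 probe sets. The gene values were 12.48, 12.25 and 12.36 for the WT arrays against 12.28, 12.78 and 12.47 for the KO arrays. KO 2 was highest and the other KO arrays lay within or near the WT range. The difference was 0.15 (SE 0.13, 95% interval -0.15 to 0.44, limma adjusted p = 0.94), with 0.12 (4385346) and 0.17 (4322468) for the single probe sets. Its size rested on single arrays: without KO 2 the difference was 0.01, against 0.26 without KO 1, 0.09 without WT 2 and 0.06 with a term for WT 1, KO 2 and KO 3.

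**Figure D2:**
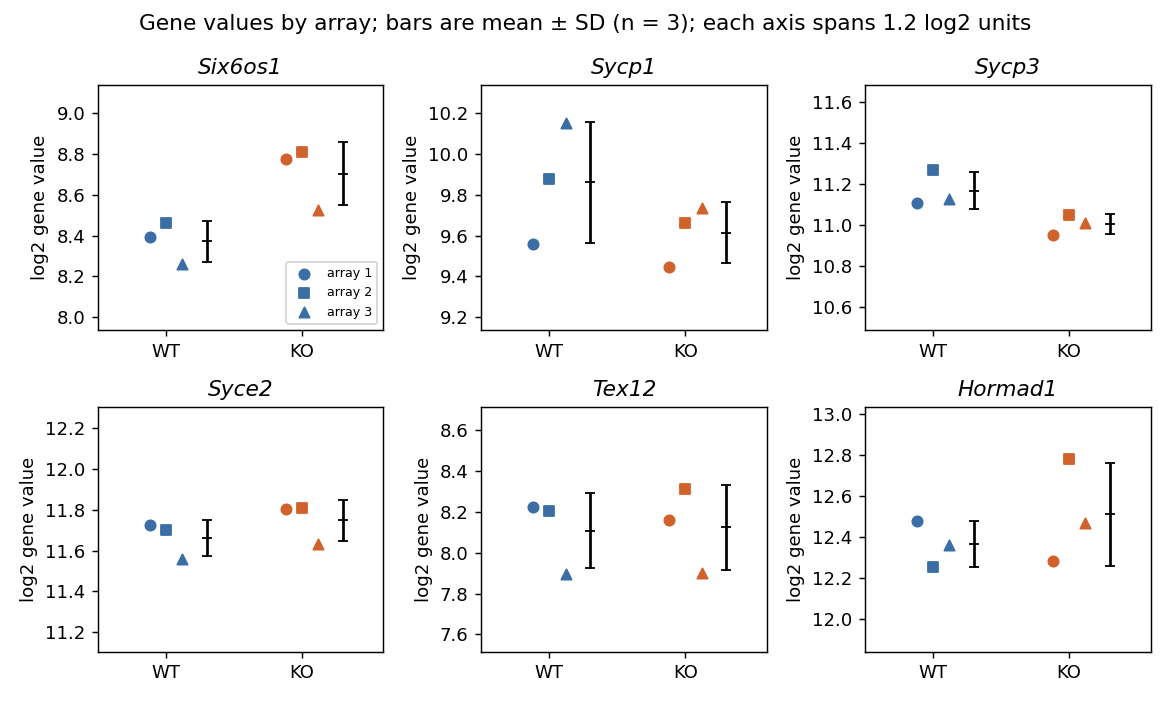
Gene values (log2, mean over probe sets) of the 6 measured members on each array, WT in blue and KO in orange, with black bars for mean ± SD of 3 arrays and each vertical axis spanning the same range. Six6os1 and Sycp3 have groups that do not overlap, with differences of 0.33 and -0.16. Over all genes, 4.53% had all KO arrays above all WT arrays and 6.67% had all below. The Six6os1 value includes the probe set on which the gene was chosen.

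Among the partners, then, 0 of 5 genes passed limma's adjusted threshold and 0 had an unadjusted p under 0.05, where 6.05% of all genes had one. Their median difference as genes was 0.02, beside 0.00 over all genes, and the largest, that of Sycp1, was 1.19-fold. At the level of single probe sets, 0 of their 36 passed, where 0.0382% of all did, and 3 had an unadjusted p under 0.05, where 5.36% of all did. Their differences ran from -0.59 to 0.17, with a median of -0.14 beside 0.00 over all probe sets, and Sycp1 and Sycp3 hold 25 of the 36. The 36 held 6 probe sets with all KO arrays below all WT arrays, which 5.27% of all probe sets showed. They held 1 with all KO arrays above, which 4.97% of all showed. All 6 of those with KO below belonged to Sycp1 and Sycp3. The intervals are those of single genes, and differences inside them are not excluded by these arrays.

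**Figure D3:**
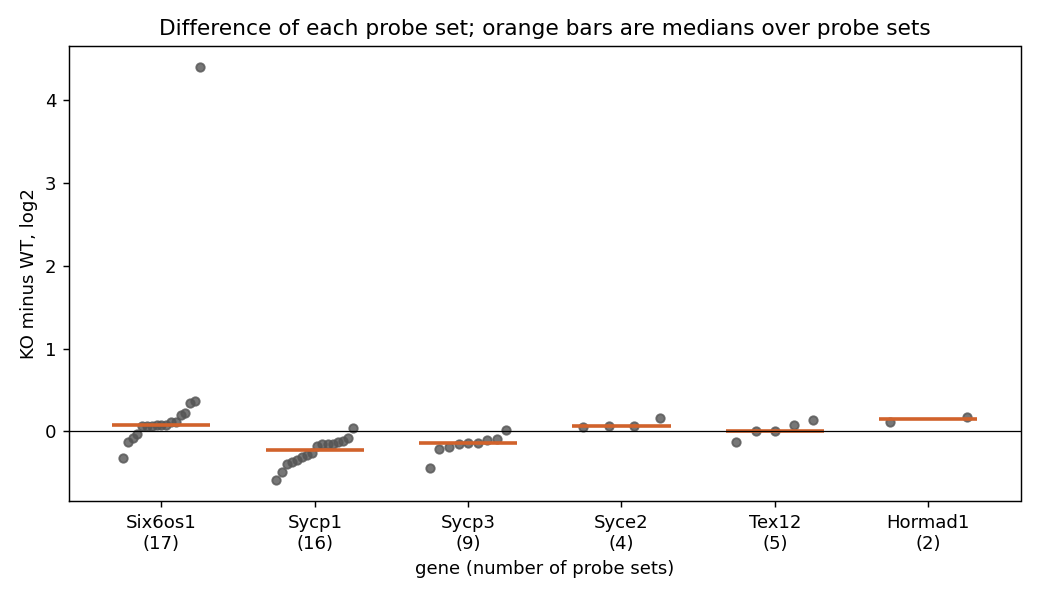
KO minus WT (log2) of each of the 53 probe sets, by gene, with orange bars for the median over a gene's probe sets. One Six6os1 point lies at 4.41, and all others lie between -0.59 and 0.37.

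Whether 1 probe set of a partner left the rest of its gene was tested on each probe set minus the mean of the others of its gene. The 4 partners with at least 3 probe sets gave 0 calls by limma with Simes p-values, where 0.0848% of 14152 genes were called, and 0 unadjusted p under 0.05 (smallest 0.83). Partner probe sets departed by -0.37 to 0.31, in Sycp1 for both ends, while the leading probe set of Six6os1 departed by 4.33. limma's diffSplice, which shares a variance within a gene, also called 0 of the 4, where it called 2.08% of all 14152 genes.

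The genes around Six6os1 on chromosome 12 were followed to see whether the shift extended to them. In GRCm38.p6 its nearest measured neighbours are Ppm1a, a protein phosphatase, Dhrs7, a dehydrogenase/reductase family gene, and Lrrc9, a leucine-rich repeat gene, on the side of lower coordinates. On the other side lie the homeobox genes Six6 and Six4 and then Mnat1, an assembly factor of the CDK-activating kinase. Their gene-level differences ran from -0.16 (Mnat1) to 0.08 (Lrrc9). limma called 0 of the 6 and 0 of their probe sets, where it called 0.0697% of all genes and 0.0382% of all probe sets. With calls that rare, a count of 0 says little about these neighbours. Lrrc9 had 4 of 33 probe sets with an unadjusted p under 0.05, where 5.36% of all probe sets had one, and all 4 were higher in KO. The largest, probe set 5525389, read 10.41, 10.74 and 10.37 on the WT arrays and 11.88, 11.83 and 11.74 on those of KO, a difference of 1.31 (limma adjusted p = 0.061). Mnat1 had 1 of 9 at -0.89 (limma adjusted p = 0.89). Six6 had 1 of 6, probe set 5299254, at 0.31 (limma adjusted p = 0.92). Its KO arrays all lay above its WT arrays, as in 4.97% of all probe sets. Its means of 3.18 in WT and 3.49 in KO lay under the lower quartiles of the arrays (4.59 to 4.67). Six6, from which the older name of Six6os1 derives, had a WT mean of 4.29 over 6 probe sets. Above it lay 4962767 at 6.92, 4843838 at 5.39 and, narrowly, 4380095 at 4.32.

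**Figure D4:**
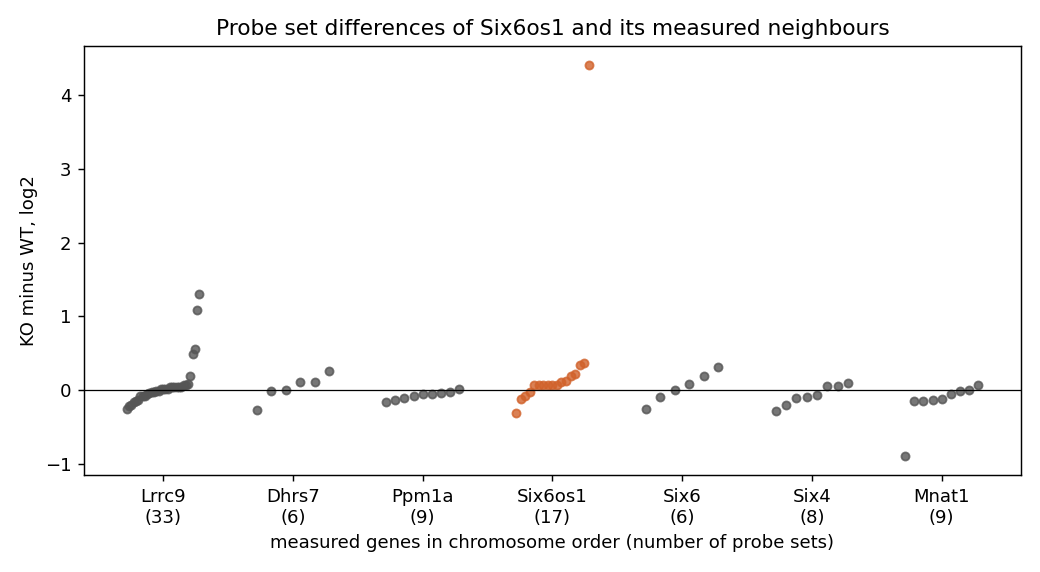
KO minus WT (log2) of each probe set of Six6os1 (orange) and of the 3 nearest measured genes on each side (grey), in chromosome order. Six6os1 has 1 point at 4.41, and Lrrc9 reaches 1.31.

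Six6os1 shares its chromosome with Ttll5, with 108 measured genes between them. Of the probe sets on chromosome 12 outside both genes, 34 of 5671 (0.600%) passed limma's adjusted threshold, against 16 of 173076 (0.00924%) on the other chromosomes. Both counts fell with any 1 array left out, which also leaves the test with fewer arrays. On chromosome 12, 6 to 18 were then called (6 without KO 2, 7 without WT 2, 8 without WT 3, 13 without KO 1, 16 without WT 1 and 18 without KO 3). On the others the count was 2 to 14, with 14 when WT 1 was left out. With the replicate block they were 3 and 0. Called genes made up 1.04% of the 481 measured on chromosome 12 outside Ttll5 and Six6os1, and 0.532% of the 940 on chromosome 9, where Tex12 lies. Over all genes the share was 0.0697%. Of the 11 genes called, 6 lay on chromosome 12, Ttll5 among them, and 5 on chromosome 9. There were 0 on chromosomes 3, 8 and 10, which carry Sycp1 and Hormad1, Syce2, and Sycp3. Whether sequence linked to the KO allele, or a base difference under a probe, has a part in the Six6os1 reading was not tested.

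The probe sets of other genes whose 6 values were most like the leading one of Six6os1 all lay on chromosome 12 as well. Likeness was the root mean square difference after each profile was centred on its mean. The gap between KO and WT makes up most of the leading profile, so this measure picks probe sets with a similar KO rise. The 5 picked differed by 3.65 to 5.15, on the same contrast and arrays that chose Six6os1. They are descriptions and give no separate support. The nearest was probe set 5382167 of 2810002N01Rik, now Coa8, at 0.17, which read 3.84, 3.94 and 3.71 on the WT arrays and 8.06, 8.06 and 8.01 on those of KO. It was followed by 1 probe set each of Tshr (0.38), Prps1l1 (0.41), Gtf2a1 (0.46) and Serpina3g (0.52). In Gtf2a1, as in Six6os1, the others of the gene had a median near 0 (-0.09 over 5). In Tshr, Prps1l1 and Serpina3g the others had medians of 2.13, 1.17 and 5.17, and in Coa8 of 0.48 over 3.

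Other genes of meiotic prophase were read from a list made by function, on which 21 of 35 were measured and the others were not analysed here. limma called 0 of the 21, where 0.0697% of all genes were called, and 1 (4.76%) had an unadjusted p under 0.05, where 6.05% of all genes did. Higher values in KO were found for 9 and lower values for 12, with a median of -0.03. None of their 366 probe sets passed either. Psmc3ip, a partner of the strand exchange proteins, had 10.27, 10.45 and 10.47 on the WT arrays and 10.21, 10.29 and 10.03 on those of KO, a difference of -0.22 (limma adjusted p = 0.82). Msh5, which stabilises crossover intermediates, differed by -0.21 (limma adjusted p = 0.84), and Mlh3, which acts in crossover resolution and lies on chromosome 12, by -0.11 (limma adjusted p = 0.91). On the higher side, the meiotic cohesin subunit Rec8 differed by 0.19 (limma adjusted p = 0.84), Tex15 by 0.22 (limma adjusted p = 0.87) and Brca2, which loads strand exchange proteins, by 0.15 (limma adjusted p = 0.93). Groups overlapped in all of these except Mlh3 and Tex15. Mlh3 had all KO arrays below all WT arrays, as did 6.67% of all genes. Tex15 had all KO arrays above, as did 4.53%.

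By role, the 3 measured cohesin subunits had a median of -0.01, with Stag3 at -0.01 and Smc1b at -0.10. The 6 crossover genes had a median of -0.06 and the 5 strand exchange genes -0.03. The 3 genes of double-strand break formation had -0.05, with Spo11, the break-forming enzyme, at -0.13. That -0.05 is the value of Mei4, which read 4.47 to 4.68, near the arrays' lower quartiles (4.59 to 4.67). A signal above background is thus not shown for Mei4. The 3 genes that tether telomeres to the nuclear envelope (Sun1, Ccdc155 and Ccdc79) had a median of 0.04. The breadth of the intervals differed among these genes, from -0.20 to 0.12 for Msh4 with its 31 probe sets to -0.69 to 0.55 for Mnd1 with 1. Mnd1 also read low, at 4.54 to 5.65.

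**Figure D5:**
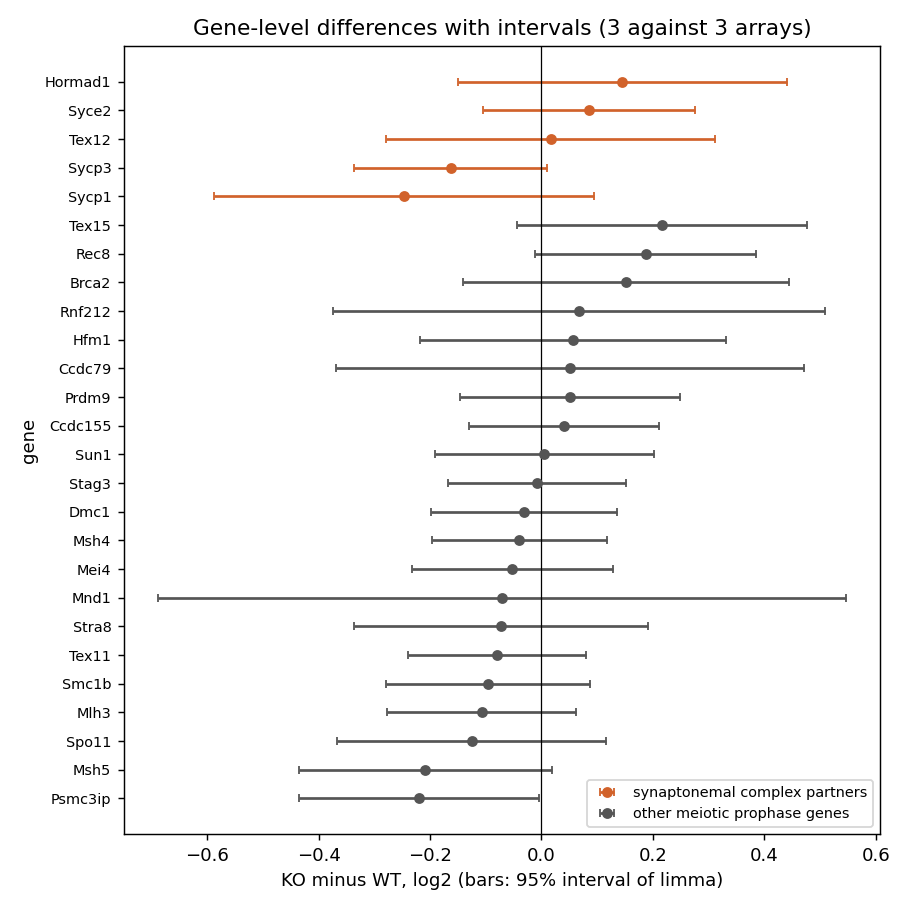
KO minus WT (log2) of the 5 partners (orange) and 21 other meiotic prophase genes (grey), with limma's 95% intervals over 3 against 3 arrays. The interval of Psmc3ip, -0.43 to -0.0036, is the only one that does not include 0, without adjustment.

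Markers of the other cells of the testis were read beside these values. The 6 spermatid markers had a median difference of -0.09 (5 lower and 1 higher in KO) and the 3 spermatogonial markers of -0.12 (all 3 lower). In each limma called 0, and 1 (Tnp1) and 0 had an unadjusted p under 0.05. The 4 spermatocyte markers given above were also all lower, with a median of -0.04. Medians were 0.01 for 4 Sertoli cell markers (2 higher, 2 lower) and 0.17 for 3 macrophage markers (2 higher, 1 lower). Of the latter, 1 (Adgre1, 0.28) had an unadjusted p under 0.05. The 2 markers of peritubular myoid cells were higher, with a median of 0.03. The 5 Leydig cell markers were all higher in KO with a median of 0.39 and a list mean of 9.39, 9.73 and 9.85 on the WT arrays and 10.00, 10.11 and 9.97 on those of KO. None passed limma's adjusted threshold, and 3 had an unadjusted p under 0.05. Over all genes, 0.0697% passed and 6.05% had an unadjusted p under 0.05, which stand beside the counts of every marker list. The part of these marker levels in the values of the synaptonemal complex genes was not tested.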

How the data were processed

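The authors deposited 1 table of log2 probe set values for 6 arrays, with the use of RMA and Partek 6.5 per the submitters' processing notes. For their roles, the background correction and the genome build, the sources used here give nothing. RMA equalises array distributions, which would hide a shift common to most genes. The array medians were 6.72 to 6.77, and values were used as deposited. Platform annotation gave 1 symbol for 179163 of 188590 probe sets, several for 1322 and none for 8105. Gene values are means over probe sets with 1 symbol, unfiltered (15792 genes).

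KO was compared with WT by limma 3.58.1 (R 4.3.3), two-sided, with Benjamini-Hochberg adjustment over all genes or probe sets. An exact permutation test of 3 against 3 cannot go below 0.1. Departures used each probe set minus the mean of its gene's others, in genes with 3 or more. Scripts were tested on simulated data. The members and lists were chosen with earlier results of these data known. Named were all members, their lowest and highest probe sets, 3 list genes per direction by p, 3 neighbours per side and 5 profiles most alike; other names were chosen after their values were seen. RefSeq GRCm38.p6 gave names, gene order and promoters, but the array's build is unknown. Array number limits precision.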

Additional observations from a re-analysis of the deposited data

How the results depend on the processing

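In none of the alternatives run was a partner gene called, and the same held for partner probe sets, departing probe sets of partners and the other meiotic prophase genes (0 throughout). Of 75 partner gene values over 15 alternatives, 71 kept their direction and stayed short of the threshold (smallest limma adjusted p 0.56). The exceptions were all Tex12, which differed by -0.0037 with a term for WT 1, KO 2 and KO 3, and ranged from -0.0894 to 0.13 with 1 array left out (omitting WT 3 gave -0.0894, omitting KO 2 -0.077 and omitting KO 1 -0.0004). With 1 array left out, Sycp1 ranged from -0.40 to -0.10, Sycp3 from -0.19 to -0.11, Syce2 from 0.03 to 0.14, Hormad1 from 0.01 to 0.26, and the partner median from -0.09 to 0.13. The leading Six6os1 probe set differed by 4.29 to 4.52, and by 4.26 to 4.42 relative to its others, which became 4.53 when their median was used. Correlations of same-numbered deviations were -0.16, -0.02 and 0.12, and not every array correlated best with its own number. With so few arrays these correlations cannot decide whether the replicate numbers pair the arrays, and a pairing of littermates is not excluded. With the replicate block the partner median was 0.02, the Six6os1 departure 4.33, and 0 partners were called, while the probe sets called over the table went from 72 to 7 and departing genes from 12 to 5. Over all alternatives the genes called ranged from 2 to 20 (11 as reported), the probe sets from 3 to 125 and the departing genes from 0 (no moderation) to 294 (diffSplice). The chromosome 12 count, rerun under these settings after the data were seen, ranged from 2 (no moderation) to 53 (trended and robust) outside Ttll5 and Six6os1, and from 0 to 35 on the other chromosomes. Array number and, for the WT reading of the leading probe set, signal near background limit these values.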
